A study of Arabidopsis thaliana with 12 samples.

Results

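The chloroplast NADH dehydrogenase-like (NDH) complex was examined through 7 of its nuclear-encoded subunits, *NdhT*, *NdhS*, *NdhU*, *NdhL*, *NdhM*, *NdhN* and *NdhO*. They were chosen by gene identifier, starting from *NdhT*, and all 7 were found among the 16755 genes of the RNA-seq table. *NdhT* was singled out with the authors' own *ago4* against Col-0 columns and an upstream differentially methylated region (DMR) in view, so its DMRs are described below without a test. The series holds 12 samples of *Arabidopsis thaliana* seedlings in the Col-0 background, aged 2 to 3 weeks according to the labels. RNA was sequenced from 3 replicates of *ago4* (*ago4-1*, introgressed into Col-0), and Hi-C was performed in 3 replicates each of *ago4*, *nrpe1* (*nrpd1b-11*) and Col-0 wild type. AGO4 is the argonaute that binds the small RNAs of RNA-directed DNA methylation (RdDM), and NRPE1 is the largest subunit of RNA polymerase V. An introgressed line can keep segments of its donor around the mutation and elsewhere. The wild-type RNA libraries come from an earlier data set that was prepared in parallel with *ago4*.

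The NDH complex sits in the thylakoid membrane, where it takes electrons from ferredoxin and passes them to plastoquinone, and so carries part of the cyclic electron flow around photosystem I. Its core is encoded partly in the plastid genome, while the subunits examined here are nuclear genes whose proteins are imported into the chloroplast. NdhL, NdhM, NdhN and NdhO belong to the stroma-facing part known as subcomplex A. NdhS, NdhT and NdhU belong to the electron donor-binding part, in which NdhS provides the ferredoxin-binding site and NdhT and NdhU are J-domain-like proteins.

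Among the 7 genes, *NdhT* was the one with a listed DMR within 10 kb upstream. *NdhT* (AT4G09350) occupies chr4:5931110-5932475 on the minus strand of TAIR10.1 and has 2 exons. Hi-C reports which DNA ends were ligated together in crosslinked nuclei, and the files used here list, for each *ago4* and *nrpe1* library, the published *nrpe1* DMRs that had a chromosomal interaction. An *nrpe1* DMR is a region that loses CHH methylation in *nrpe1*. A proximal DMR at chr4:5932995-5933377 began 520 bp upstream of the annotated start of *NdhT* and was 383 bp long. A distal DMR at chr4:5933520-5935299 began 1045 bp upstream, ended 2824 bp upstream and was 1780 bp long, with 142 bp between them. Both were intergenic. The next annotated gene on the far side was the lncRNA gene AT4G05715, 2397 bp from the distal DMR. The DMR sequences are shown because they carry the Hi-C result at *NdhT*, and the stretch next to the gene, which overlaps no listed DMR, for the motifs described further on. They are given 5′ to 3′ in the direction of *NdhT*, from the RefSeq TAIR10.1 genome, as the 300 bases of each DMR that hold the *Dpn*II site nearest to the gene (GATC, in capitals), followed by the 250 bases before the gene start, in which GATAAG or its complement is in capitals.
Proximal DMR of NdhT, chr4:5933078-5933377, minus strand: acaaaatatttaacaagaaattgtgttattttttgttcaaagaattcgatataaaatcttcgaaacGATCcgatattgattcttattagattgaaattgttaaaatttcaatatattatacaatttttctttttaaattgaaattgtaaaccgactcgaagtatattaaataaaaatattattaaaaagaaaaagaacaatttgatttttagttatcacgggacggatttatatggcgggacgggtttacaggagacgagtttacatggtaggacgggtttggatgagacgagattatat
Distal DMR of NdhT, chr4:5933520-5933819, minus strand: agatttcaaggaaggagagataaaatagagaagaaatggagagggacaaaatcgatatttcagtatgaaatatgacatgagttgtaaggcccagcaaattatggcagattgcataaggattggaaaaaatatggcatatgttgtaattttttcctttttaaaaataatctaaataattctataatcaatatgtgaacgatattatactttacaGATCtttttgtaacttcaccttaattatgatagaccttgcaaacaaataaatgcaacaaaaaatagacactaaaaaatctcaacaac
Upstream of NdhT, chr4:5932476-5932725, minus strand: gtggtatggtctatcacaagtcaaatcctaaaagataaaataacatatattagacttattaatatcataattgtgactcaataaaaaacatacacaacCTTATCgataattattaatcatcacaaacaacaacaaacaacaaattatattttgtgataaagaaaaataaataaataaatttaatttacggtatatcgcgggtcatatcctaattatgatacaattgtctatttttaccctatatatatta

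Both *NdhT* DMRs were listed in *ago4* replicate 2 and in none of the other 5 lists. They were thus absent from the lists of *ago4* replicates 1 and 3 and of all 3 *nrpe1* replicates. The authors filtered interactions by read count, with a minimum of 2 reads, and propose that sequencing depth limits their detection. Absence from a list therefore need not mean that a contact was absent. The proximity of *NdhT* to a listed DMR rests on 1 library. That library had the longest list, with 265 DMRs, against 215 and 207 in *ago4* replicates 1 and 3 and 50, 176 and 65 in *nrpe1* replicates 1, 2 and 3. A DMR in a single list was common, as 279 of the 541 different DMRs were in 1 list only, 56 of them (10.4%) in *ago4* replicate 2 only. The lists name no column for the number of reads behind an interaction or for the locus at its other end. Their last columns carry no name and were not used, so the depth at *NdhT* and the partner of these contacts are not known here. No Col-0 list entered the comparison.

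**Figure D1:**
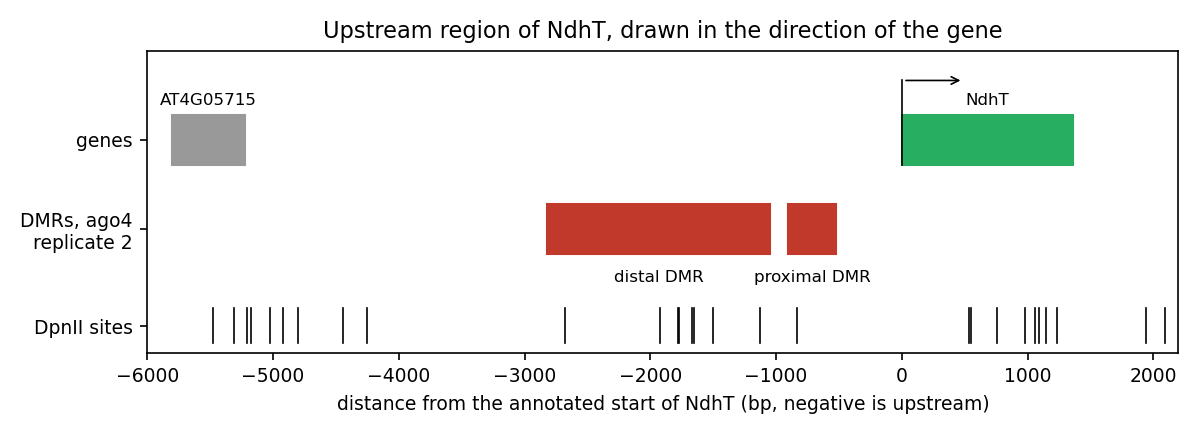
The region upstream of *NdhT*, plotted by distance in bp from its annotated start and drawn in the direction of the gene, with genes above, the DMRs listed in *ago4* replicate 2 in the middle and *Dpn*II sites as vertical lines below. The proximal DMR begins 520 bp and the distal DMR 1045 bp upstream, and the *Dpn*II site nearest to the gene start on this side, at 833 bp, falls inside the proximal DMR. AT4G09355, which overlaps AT4G05715, is not drawn.

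The pair of DMRs differed in sequence. The proximal DMR held 1 *Dpn*II site in 383 bp and the distal DMR 8 in 1780 bp. Over all DMRs the median count was 1 and the median length 408 bp, and 194 of the 541 (35.9%) held none. The counts were not adjusted for length. *Dpn*II is the enzyme that cut the chromatin before ligation. The site in the proximal DMR, 833 bp upstream, was the nearest to the gene start on that side, and the fragment that holds the gene start is 1374 bp long. The nearer part of the proximal DMR therefore lies on the same restriction fragment as the start of *NdhT*, and at the level of fragments the contacts of that nearer part and of the gene start cannot be told apart. The farther part lies on the next fragment, which does not hold the gene start. That fragment reaches to the site 1128 bp upstream, so it also holds the near edge of the distal DMR, which begins at 1045 bp. At the level of fragments, contacts of these parts of the DMRs cannot be told apart either. GC content was 28.7% in the proximal and 30.7% in the distal DMR, against a median of 31.3% over all 541 DMRs (quartiles 27.3% and 34.7%). RdDM maintains methylation largely at CHH sites, where H is A, C or T. Of the cytosines on both strands, 72 of 110 (65.5%) were in CHH context in the proximal DMR and 411 of 547 (75.1%) in the distal DMR, against a median of 74.1% over all DMRs (quartiles 67.2% and 80.6%). The proximal DMR was richer in CG sites, with 25.5% of its cytosines against 12.4% in the distal DMR. The proximal DMR had 10 similar copies on chromosomes 2, 4 and 5, with identities of 80.9% to 94.8%, of which 4 were on chromosome 4. None of these copies overlapped a listed DMR. The distal DMR had 0 copies by the same criteria. These ask for 50% of the DMR length in 1 alignment, so repeats as short as those of the proximal DMR were not counted within its 1780 bp. The 2 counts are therefore not on the same footing. Having a copy was usual, as 396 of the 541 DMRs (73.2%) had at least 1, and 199 (36.8%) had 10 or more. The authors kept only read ends that aligned uniquely, and the part that these copies play in the coverage of the proximal DMR was not tested.

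With a DMR counted as upstream when it overlaps the 2.5 kb before the annotated gene start, *NdhT* was the 1 of 7 subunits with a DMR of an *ago4* list, and none had a DMR of an *nrpe1* list. Over the 16604 genes of the table on nuclear chromosomes, 171 (1.03%) had an upstream DMR of any *ago4* list and 83 (0.5%) one of any *nrpe1* list. By list the shares were 0.452%, 0.741% and 0.584% for *ago4* replicates 1, 2 and 3, and 0.126%, 0.416% and 0.193% for *nrpe1* replicates 1, 2 and 3. As *NdhT* was chosen for its DMR, nothing is read from the 1 of 7. Among the 171 genes, 88 (51.5%) had their upstream DMRs in a single *ago4* list, as *NdhT* did, and 39 had one in all 3. *NdhT* was among 13 genes (7.6% of the 171) with 2 or more. Parts of its 2 DMRs share a restriction fragment, so they need not be separate contacts. A further 26 genes had upstream DMRs in *ago4* replicate 2 and in no other list, and none of these had more than 1. The 5 of them with a DMR distance closest to the 520 bp of *NdhT* were AT2G27610 (554 bp), *ZTL* (459 bp), AT2G03550 (414 bp), AT5G66800 (407 bp) and AT3G15260 (687 bp). *ZTL* encodes a blue-light receptor of the circadian clock, and AT3G15260 is annotated as a protein phosphatase 2C family gene.

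The other 6 subunits lay 107 kb or more from any listed DMR. For all but *NdhL*, the gap to the nearest *ago4* list DMR was within the quartiles of genes in general. *NdhU* (AT5G21430, chr5:7222179-7223639, plus strand) was nearest, with a gap of 107 kb to a DMR listed in *ago4* replicate 2. For *NdhN* (AT5G58260, chr5:23560568-23562001, minus strand) the gap was 167.2 kb, to a DMR listed in replicate 2 of both *ago4* and *nrpe1*. *NdhS* (AT4G23890, chr4:12420414-12421464, minus strand) was 185 kb from a DMR of *ago4* replicates 2 and 3. These distances are close to what genes in general showed, with a median of 164.7 kb to the nearest DMR of any *ago4* list (quartiles 57.6 and 431.3 kb). *NdhO* (AT1G74880, chr1:28129828-28131077, minus strand) was 339.2 kb from a DMR of *ago4* replicates 1 and 3. *NdhM* (AT4G37925, chr4:17830533-17831619, minus strand) was 419.6 kb from a DMR of all 3 *ago4* lists. *NdhL* (AT1G70760, chr1:26687202-26688384, plus strand) lay farthest out, 982 kb from a DMR of *ago4* replicate 2 and *nrpe1* replicates 2 and 3, and had no listed DMR within 500 kb.

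The gap between *NdhT* and the nearest DMR depended on the library. It was 202.8, 0.5 and 247.7 kb in *ago4* replicates 1, 2 and 3, and 104.5, 84.5 and 247.7 kb in *nrpe1* replicates 1, 2 and 3. Outside *ago4* replicate 2 the nearest DMR was thus never closer than 84.5 kb. A gap as small as that in *ago4* replicate 2 was found for 0.434% of genes in that list. As *NdhT* was chosen with that DMR in view, nothing is read from this share. The other lists placed *NdhT* nearer to a DMR than their median gene, which had gaps of 348 and 394.1 kb in *ago4* replicates 1 and 3, and of 1473.8, 382.9 and 982.6 kb in *nrpe1* replicates 1, 2 and 3. Within 500 kb on either side of its start, *NdhT* had 7 DMRs of any *ago4* list and 7 of any *nrpe1* list. By replicate these were 2, 5 and 3 in *ago4* and 2, 7 and 2 in *nrpe1*, so the genotypes overlapped. The other 6 subunits had 0 to 4 DMRs of *ago4* lists and 0 to 2 of *nrpe1* lists in windows of the same size, and the median gene had 2 of *ago4* lists. The 7 of *NdhT* include its 2 upstream DMRs, which were in view when it was chosen. At least as many DMRs of *ago4* lists were found around 15% of genes. The same share was not computed for *nrpe1* lists, so nothing is read from the 7 of *nrpe1*.

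**Figure D2:**
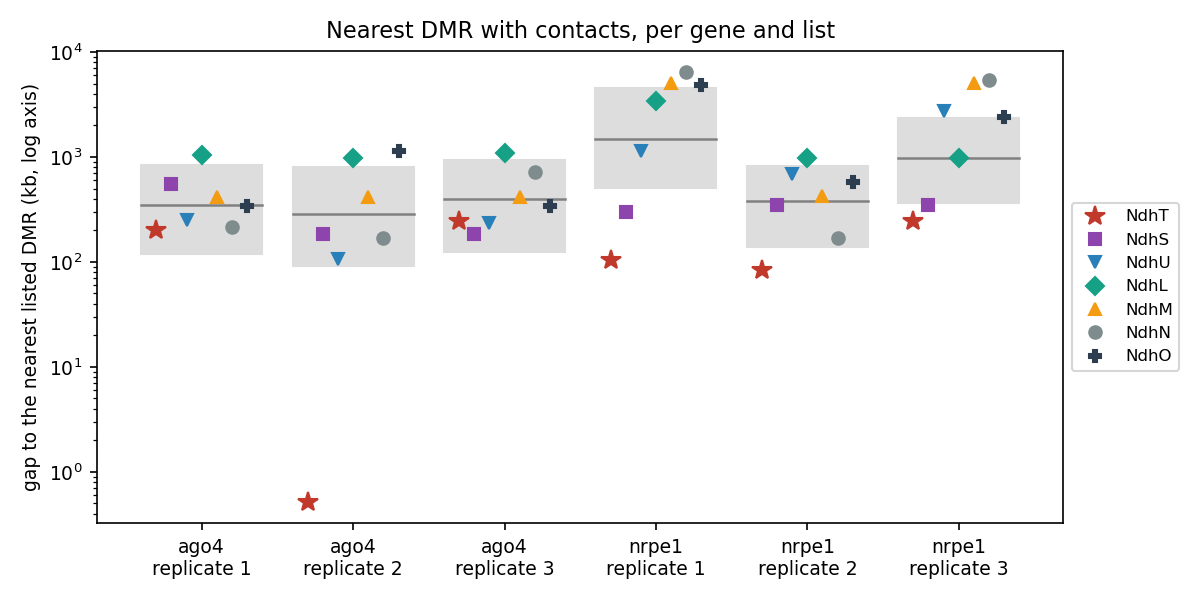
Gap in kb (log axis) between each of the 7 subunit genes and the nearest DMR of each list, with the 3 *ago4* lists left of the 3 *nrpe1* lists. Grey boxes give the quartiles and grey lines the median over the 16604 nuclear genes of the table. *NdhT* (star) stands at 0.5 kb in *ago4* replicate 2 and between 84.5 and 247.7 kb in the other 5 lists, while the other subunits are never nearer than 107 kb.

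*NdhT* also had the lowest pooled transcript level of the 7 genes. The RNA-seq table gives 1 mean log2 CPM (reads of a gene scaled to a common library total) per gene over the *ago4* and Col-0 libraries together, with no value for a single library, so neither the spread between replicates nor the order of neighbouring genes could be tested. The depth of the RNA libraries is unknown for the same reason. As *NdhT* was chosen with the *ago4* against Col-0 columns in view, its pooled level need not be its level in either genotype. To compare genes, the log2 of the summed exon length in kb was subtracted here. The authors' mean for *NdhT* was a log2 CPM of 2.19, which is 1.83 per kb and exceeds 48% of nuclear genes in the table. The gene with the next lowest level, *NdhM*, had 4.01 per kb on the same log2 scale, 4.52-fold more than *NdhT*. *NdhN* had 4.47, *NdhU* 5.20, *NdhO* 5.63 and *NdhS* 5.65 per kb on that scale. *NdhL* was highest at 7.01 per kb, above 98.5% of genes and 36.2-fold more than *NdhT*. Neighbours in this order such as *NdhO* and *NdhS* differed by little, and they changed places when coding length was used. The median of all nuclear genes in the table was 1.93 per kb, so that 6 of the 7 subunits were above it and *NdhT* was just below. Not every annotated gene has a row, and the lowest log2 CPM in the table was -0.73. Medians and shares of all genes therefore hold for genes with a row, here and elsewhere. The protein partners in the electron donor-binding part, NdhS, NdhT and NdhU, thus had transcript levels on both sides of the general median, with *NdhS* and *NdhU* above 95.3% and 93.5% of genes.

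The regions before the start of the 7 genes were searched for motifs known from plant promoters. Of the 250 bases before the gene start, GC made up 23.2% in *NdhT*, against 29.6% to 46.4% in the other 6 subunits and a median of 31.6% over all genes. The I-box core GATAAG, searched on both strands, was present in *NdhT* and in none of the other 6, and in 12.7% of the upstream regions of all 16604 genes. The G-box CACGTG was present in *NdhL* alone, against 7.37% of all regions. TATAAA on either strand was present in *NdhL* and *NdhO*, against 44.9% of all regions. The region of *NdhL* is shown as the counterpart to that of *NdhT*, with CACGTG and TATAAA in capitals.
Upstream of NdhL, chr1:26686952-26687201, plus strand: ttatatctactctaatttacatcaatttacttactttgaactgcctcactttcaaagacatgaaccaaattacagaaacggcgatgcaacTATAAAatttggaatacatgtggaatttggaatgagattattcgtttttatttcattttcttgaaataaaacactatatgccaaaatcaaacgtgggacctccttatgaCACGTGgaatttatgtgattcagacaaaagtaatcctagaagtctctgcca

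The rest of the NDH machinery was described from lists of nuclear genes. All 13 genes of the list of other subunits were in the table, and their authors' mean log2 CPM per kb was between 3.30 for *PnsL3* and 6.38 for *PnsL1*, with a median of 4.70. The list includes *Lhca5* and *Lhca6*, antenna proteins that link the complex to photosystem I. *PnsL1* is a PsbP-like and *PnsL3* a PsbQ-like protein of the lumenal part of the complex. All 13 were above *NdhT*, which was therefore the lowest of the 20 nuclear genes listed and the one below the median of all genes. A DMR of an *ago4* list lay upstream of 2 of these 13 genes, against 1.03% of all genes. A DMR of an *nrpe1* list lay upstream of none, against 0.5% of all genes. *PnsB5* (AT5G43750, chr5:17579867-17581275, minus strand), a subunit of membrane-bound subcomplex B, had a DMR of 219 bp at chr5:17582956-17583174, 1681 bp upstream. This DMR was in 3 of 3 *ago4* lists, where those of *NdhT* were in 1, and like them it was in 0 of 3 *nrpe1* lists. AT2G04039 (chr2:1333133-1334566, plus strand), annotated as a DUF2996 family protein, had a DMR at chr2:1330396-1330690, 2443 bp upstream, which was in *ago4* replicates 2 and 3 and in 0 of 3 *nrpe1* lists. AT2G04039 was put among the subunits from general knowledge of the complex and not from this annotation, and without it *PnsB5* is the 1 gene of this list with an *ago4* DMR upstream. Their levels per kb on the log2 scale were 4.80 for *PnsB5* and 4.06 for AT2G04039.

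**Figure D3:**
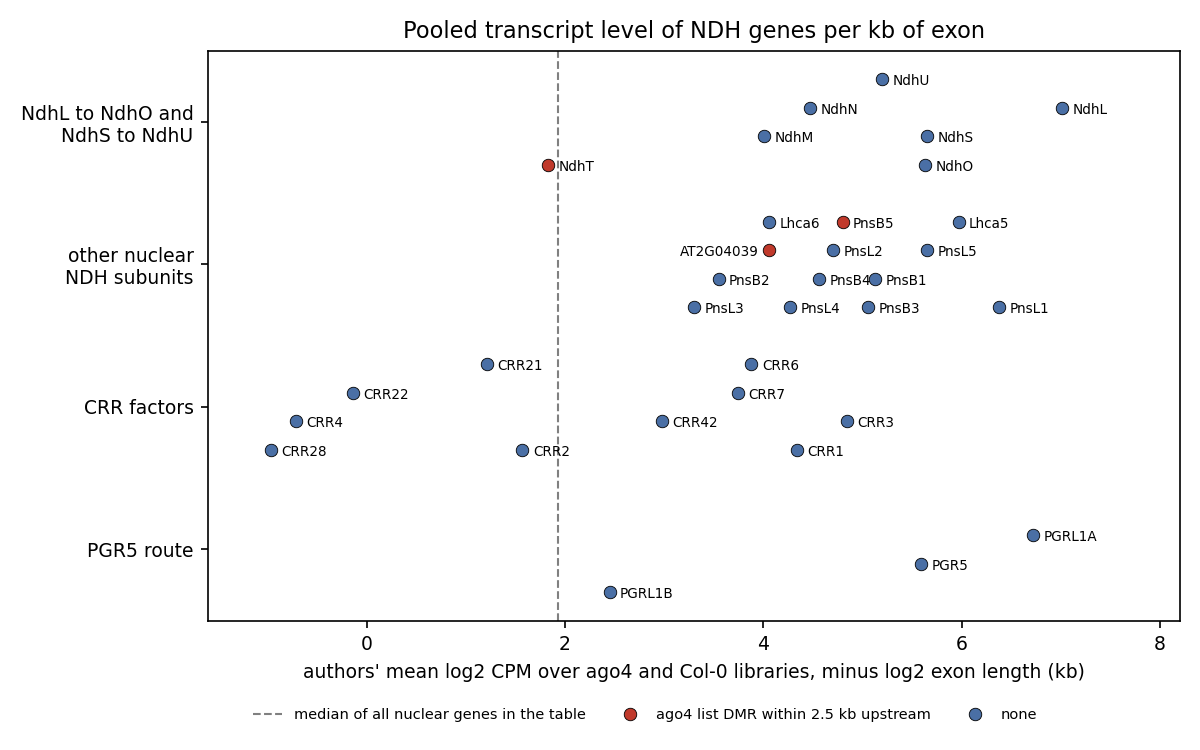
Authors' mean log2 CPM over the *ago4* and Col-0 libraries minus the log2 of exon length in kb, with 1 point per gene and no error, as no values of single libraries were used. Vertical offsets within a row only separate labels, red points have a DMR of an *ago4* list within 2.5 kb upstream, and the dashed line is the median of all nuclear genes in the table (1.93). *NdhT* is at 1.83 and all other nuclear NDH subunits lie at 3.30 or above.

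The CHLORORESPIRATORY REDUCTION (CRR) factors assemble the complex or process plastid *ndh* transcripts. Their 10 genes had a median level of 2.27 per kb on the log2 scale, against 4.70 for the other subunits, and the ranges overlapped. *CRR3*, needed for accumulation of the complex, was highest at 4.84, and *CRR28*, a pentatricopeptide repeat editing factor, was lowest at -0.97, so that 5 of the 10 were above *NdhT*. In the PGR5 route, the other path of cyclic electron flow, *PGRL1A* had 6.72, *PGR5* 5.59 and *PGRL1B* 2.45 per kb. None of these 13 genes had a DMR of either genotype within 2.5 kb upstream. Over all genes the shares were 1.03% for *ago4* lists and 0.5% for *nrpe1* lists, so none among 13 is not particular to these genes. The labelled tissue was checked with 4 genes of green shoots, *RBCS1A*, *CAB1*, *LHCA1* and *RCA*, whose authors' mean log2 CPM was between 9.38 and 11.55, while the 5 root hair, flower and seed markers *EXP7*, *COBL9*, *AP3*, *PI* and *CRA1* had no row in the table.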

How the data were processed

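Seedlings of *ago4*, *nrpe1* and Col-0 were studied by Hi-C, and *ago4* by RNA-seq, with 3 replicates per group. Uniquely aligning Hi-C reads were placed on TAIR10 with Bowtie, and for single replicates the authors called contacts by counting reads between windows of 250 bp. For RNA-seq, rRNA-depleted RNA was mapped with TopHat2 and analysed with edgeR, per the labels and the study's methods. Of the deposited RNA table, only the mean log2 CPM was used for the results. The authors pooled the libraries of the comparison for it, and its total includes 3 entries that are no gene (60.7% of the summed CPM), which were left out here. The fold changes and p-values in that table are the authors' own *ago4* against Col-0 comparison. They were in view when *NdhT* was chosen but were not used further, so no expression difference between genotypes is given. The lists were assigned to samples by the genotype and replicate number that name them. Their last columns carry no name and were not used. Whether list starts count from 0 or 1 is not given in the sources used here, which leaves an uncertainty of 1 base in each start.

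Calculations used Python 3.11.15, numpy 2.4.6, pandas 2.3.3, matplotlib 3.10.9 and blastn 2.17.0. Positions and sequences were read from TAIR10.1. Of the 12 primers used by the study for 3C, 12 had exactly 1 match in it. Of 16755 genes in the table, 16604 matched a nuclear gene of the annotation. Copies of a DMR were alignments with at least 80% identity over at least 50% of its length, at an e-value up to 1e-10. The overlap search was tested on simulated data. All results are descriptions with no test. The RNA table has no single libraries, and the DMR counts by replicate were not tested because *NdhT* was chosen with a DMR of an *ago4* list in view. The members and lists were chosen with earlier results of these data known. Named were the 7 members, the 5 genes most like *NdhT* by their lists and DMR distance, the genes next to its DMRs, and, of each other list, the highest, the lowest and any with an upstream DMR. Outside this rule, *Lhca5* and *Lhca6* are named to say what their list holds, and the remaining genes of the PGR5 list and the markers to make those lists complete. The plastid *ndh* identifiers of the table (10 of 12 sought) were not used, as the reference does not pair them with names.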

Additional observations from a re-analysis of the deposited data

How the results depend on the processing

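The count of 1 subunit with an upstream DMR of an *ago4* list was the same at 1, 5 and 10 kb, with DMRs on either side of or inside the gene, and with only whole DMRs counted. That subunit is *NdhT*, chosen with this DMR in view, and its proximal DMR spans 520 to 902 bp upstream. This DMR lies inside each of these windows, so the count could not fall below 1 there. The count was 0 when a DMR had to be in all 3 *ago4* lists. Leaving out each *ago4* replicate in turn gave 0 to 1, with 0 when replicate 2 was left out, since both *NdhT* DMRs are in that list alone. The share of all genes with an upstream *ago4* DMR was 1.03% (95% Wilson interval 0.887% to 1.2%, counting error only). It was 0.596% at 1 kb, 1.76% at 5 kb, 3.38% at 10 kb, 1.88% on either side or inside, 0.825% with whole DMRs and 0.235% with DMRs in all 3 lists. Without 1 *ago4* replicate it was 0.759% to 0.921%. These shifts follow from wider or narrower windows and from fewer lists. For *nrpe1* the count stayed at 0 at 1, 5 and 10 kb and without each replicate. The 520 bp between *NdhT* and its proximal DMR was the same from the start of the mRNA with the longest exons. The median level of the 7 subunits was 5.20 per kb of exon, 5.82 per kb of coding sequence and 5.21 without length, on the log2 scale. No paired analysis was possible because no result reported comes from a test. DMR counts by replicate exist for both genotypes, and they were left as a description since *NdhT* was chosen with a DMR of an *ago4* list in view.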
